A study of Mus musculus with 24 samples.

Results

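RNA-seq of lymph node B cells that lacked both PU.1 and SpiB was compared with that of control B cells after culture with lipopolysaccharide (LPS) and interleukin-4 (IL-4). The comparison set the 2 libraries labelled PU.1 SpiB DKO (double knockout) against the 2 labelled control, which are 4 of the 24 libraries of the series. Of 27179 genes counted, 12216 reached 0.5 CPM (counts relative to the scaled library total) in at least 2 of these 4 libraries and were tested. All mice were C57BL/6 and 6 to 20 weeks of age. Control mice (Cd23T/+) and DKO mice (Spi1fl/fl Cd23T/+ Spib-/-) both carried the Cd23-Cre transgene, so the groups differed in the floxed Spi1 alleles, from which Cre deletes exon 5, and in the null alleles of Spib. Cre was placed under the regulatory sequences of Cd23 and is active in B cells from the transitional stage on, whereas Spib was missing from every cell of the DKO mice. B cells were taken from the lymph nodes, kept for 48 h in LPS at 20 µg/ml together with IL-4 at 10 ng/ml, and sorted to exclude T cells and cells bearing CD138, a plasma cell surface marker. Both single mutants were cultured in the same way, 2 libraries each: PU.1 cKO (Spi1fl/fl Cd23T/+) and SpiB KO (Spi1fl/fl Cd23+/+ Spib-/-), the latter with floxed Spi1 but without Cre. A second culture of control and DKO cells, with CD40 ligand (CD40L) in place of LPS, is used below only to test whether an effect of the double loss depended on the culture.

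PU.1 and SpiB are closely related transcription factors of the ETS family, and both recognise purine-rich DNA with a GGAA core, alone or together with IRF4 or IRF8. LPS is a component of the wall of Gram-negative bacteria that B cells sense through TLR4 with MD-2 and through the related pair RP105 and MD-1, which leads to NF-kB activity, division and the formation of antibody-secreting cells. IL-4 signals through its receptor to STAT6, and the combination of LPS and IL-4 is a standard culture in which B cells switch to IgG1 and IgE.

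The counts on genes totalled 22757630 and 56388071 in the control libraries and 39234563 and 31238525 in the DKO libraries, and log2 CPM of the replicates correlated at 0.988 to 0.991 across genes in the 4 genotypes. Every library labelled replicate 1 held between 4679 and 15007 counts of Xist, the transcript of the inactive X chromosome, and those labelled replicate 2 held at most 14, while Y-linked Kdm5d stood at 0 in the former and between 776 and 1933 in the latter. Each genotype therefore had 1 female-like and 1 male-like library, and the sexes were balanced between the groups. Defining B cell genes were abundant in all 4 libraries, with Cd79a at 589.5 and 473 CPM in control and 810.4 and 855 CPM in DKO. Fewer cells of a type and less RNA per cell cannot be told apart in bulk libraries such as these.

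Spib (Entrez ID 272382) was lost as labelled. It stood at 277 and 211 CPM in control and 14.9 and 11.9 CPM in DKO (log2 fold change -4.18 ± 0.20, adjusted p = 2.15e-06 by edgeR's quasi-likelihood test, where ± is the standard error). The 2 groups lay far apart, and the SpiB KO libraries, at 18.2 and 14.4 CPM, were as low as DKO. Spi1 (Entrez ID 20375), which encodes PU.1, stood at 72.1 and 60.7 CPM in control and 63.1 and 58.8 CPM in DKO, and the difference did not pass the test (log2 fold change -0.12 ± 0.10, adjusted p = 0.404). The count covers the whole gene, and a transcript without exon 5 still counts, so it gives no check of the PU.1 deletion. From read coverage, the study described exon 5 as completely excised with CD40L + IL-4 and reported similarly efficient deletion with LPS + IL-4. That coverage was not examined here. In the PU.1 cKO libraries Spi1 stood at 44.3 and 41.3 CPM, and DKO exceeded PU.1 cKO by 0.51 (adjusted p = 0.0104) on the log2 scale.

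Several genes beside the engineered loci differed widely between the genotypes. Mybpc3, the gene of a heart myosin-binding protein, lies 0.00235 Mb beyond Spi1 (chr2:91118114-91136516, GRCm38.p6). It had 4 and 11 counts in control against 13951 and 9335 in DKO, a ratio of 1700 (95% exact interval 1030 to 3030, counting error only). PU.1 cKO was as high as DKO, at 323 and 292 CPM, and SpiB KO, which holds the floxed alleles without Cre, was at 0.905 and 0.806 CPM. Csrp3, a muscle LIM protein gene 4.3 Mb from Spib, had 1 and 4 counts in control and 4173 and 3153 in DKO, a ratio of 1600 (685 to 4930). In SpiB KO it stood at 35.9 and 29.6 CPM, below DKO, and in PU.1 cKO at 0.0676 and 0.195 CPM. Htatip2, an apoptosis-linked gene 5.23 Mb from Spib, fell from 23.5 and 22.7 CPM in control to 0.541 and 0.540 CPM in DKO (log2 fold change -5.41 ± 0.18, adjusted p = 2.94e-07) and was as low in SpiB KO (0.296 and 0.179 CPM). Ftl1, the ferritin light chain gene 0.926 Mb from Spib, stood at 202 and 201 CPM in control and 24.6 and 27.8 CPM in DKO (log2 fold change -2.94 ± 0.11, adjusted p = 3.51e-07) and at 18.4 and 17.2 CPM in SpiB KO. Dhdh, 0.941 Mb from Spib, rose (log2 fold change 3.00 ± 0.20, adjusted p = 1.1e-05), and Pold1, the catalytic subunit of DNA polymerase delta next to Spib, fell (log2 fold change -0.81 ± 0.08, adjusted p = 9.47e-05).

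Differential expression (DE) required an adjusted p below 0.15 (Benjamini-Hochberg, over all genes tested), a change of more than 1.5-fold and a deposited log2 RPKM whose mean in the culture was positive. Within 5 Mb of Spib, 29 of 102 genes tested were DE, 18 of them higher and 11 lower in DKO, or 28.4%, against 13.8% of all genes tested. Around Spi1 the count was 5 of 42, or 11.9%. In the contrast of DKO with control, the loss of a factor cannot be told apart at these positions from differences in the DNA that travels with a targeted allele. SpiB KO holds the same floxed Spi1 alleles without Cre, and there Mybpc3 stood at 0.905 and 0.806 CPM. The cause of the changes near either gene was not tested. Genes of the groups below that lie in either window are named as such. Without both windows 1654 genes were DE, or 13.7% of 12070.

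**Figure D1:**
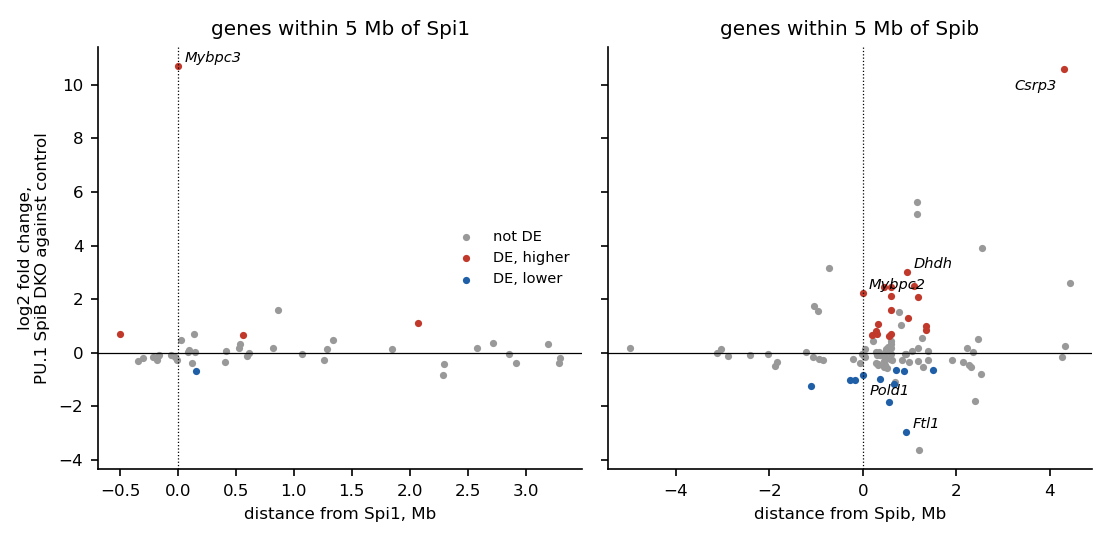
Log2 fold change of DKO against control in the LPS + IL-4 culture for each tested gene within 5 Mb of Spi1 and of Spib, plotted against its distance in Mb from the targeted gene, with DE genes coloured. In the panel of Spib 29 of 102 genes are DE and in that of Spi1 5 of 42, and Mybpc3 and Csrp3 stand at 10.69 and 10.58 on the log2 scale.

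In all, 1689 of 12216 genes were DE (13.8%), 1073 higher (8.78%) and 616 lower (5.04%) in DKO. The median log2 fold change was 0.95 among the genes that rose and -0.78 among those that fell, and -0.0027 over all genes tested. More than 4-fold changes numbered 94 upwards and 48 downwards. All 1689 DE genes moved in 1 direction in both replicate numbers, as did 82.0% of all genes tested, and in 1685 the control and DKO libraries did not overlap, against 65.7% of all genes tested. Where the separation of libraries is given below for a DE gene, it therefore describes the levels and adds no support to the call. A fold over 1.5 with the adjusted p was met by 786 further genes whose mean RPKM lay at or below the threshold, or by 20.3% of all genes with these included (13.6% higher, 6.7% lower). For 1 gene alone, a two-sided exact permutation test on 2 and 2 libraries reaches p = 0.333 at the lowest, so each call rests on the spread that edgeR estimates across genes.

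The largest rises outside the targeted loci included genes better known from other cells than from mature B cells. Atp1b1, the beta subunit of the sodium pump, stood at 4.29 and 3.63 CPM in control and 137 and 136 CPM in DKO (log2 fold change 5.12 ± 0.13, adjusted p = 4.49e-08). Zap70, the kinase that T cells use in place of SYK downstream of the antigen receptor, stood at 2.03 and 1.82 CPM in control and 55.4 and 58.1 CPM in DKO (log2 fold change 4.90 ± 0.17, adjusted p = 3.08e-07). Cd28, the costimulatory receptor of T cells, stood at 1.95 and 0.845 CPM in control and 31.6 and 29.97 CPM in DKO (log2 fold change 4.60 ± 0.32, adjusted p = 1.39e-05). At each of these genes the DKO libraries were close to each other and far above both control libraries. Csf1, the growth factor of macrophages, stood at 4.20 and 4.51 CPM in control and 87.9 and 76.5 CPM in DKO (log2 fold change 4.23 ± 0.27, adjusted p = 8.64e-06). Trib2, a pseudokinase gene, stood at 10.2 and 7.13 CPM in control and 198 and 173 CPM in DKO (log2 fold change 4.45 ± 0.16, adjusted p = 3.51e-07), and Pygm, muscle glycogen phosphorylase, at 3.94 and 3.18 CPM in control and 84.6 and 70.1 CPM in DKO (log2 fold change 4.47 ± 0.15, adjusted p = 2.94e-07). These largest changes were picked among DE genes without overlap between the groups, so the separation of their libraries was fixed by that choice. Nrgn, the neuronal calmodulin-binding protein neurogranin, Slpi, an inhibitor of leukocyte proteases, Fcrls, an Fc receptor-like gene, and the unnamed transcript Gm19585 rose by 5.11, 4.26, 4.04 and 4.48 on the log2 scale from control levels of at most 3.55 CPM.

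Among the largest falls, Ccl22, a chemokine that draws CCR4-bearing T cells, stood at 461 and 555 CPM in control and 14.1 and 39.2 CPM in DKO (log2 fold change -4.26 ± 0.40, adjusted p = 6.79e-05). Lad1, the filament protein ladinin, stood at 151 and 122 CPM in control and 11.3 and 12.8 CPM in DKO (log2 fold change -3.50 ± 0.18, adjusted p = 2.56e-06). Bcl2a1b, one of the genes of the survival protein A1, stood at 121 and 128 CPM in control and 10.2 and 12.1 CPM in DKO (log2 fold change -3.49 ± 0.13, adjusted p = 3.51e-07), and its near-identical copy Bcl2a1d stood at 88.2 and 100.5 CPM in control and 8.20 and 10.7 CPM in DKO (log2 fold change -3.32 ± 0.17, adjusted p = 2.56e-06). Reads of the A1 copies may be split between them, so the 2 values are not separate measurements, but both control libraries exceeded both DKO libraries at either copy. Xkrx, an XK-related membrane protein, and Plbd1, a phospholipase B-like protein, fell by 3.40 and 3.35 on the log2 scale, from 18.8 and 18.9 CPM and from 77.0 and 67.7 CPM in control.

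**Figure D2:**
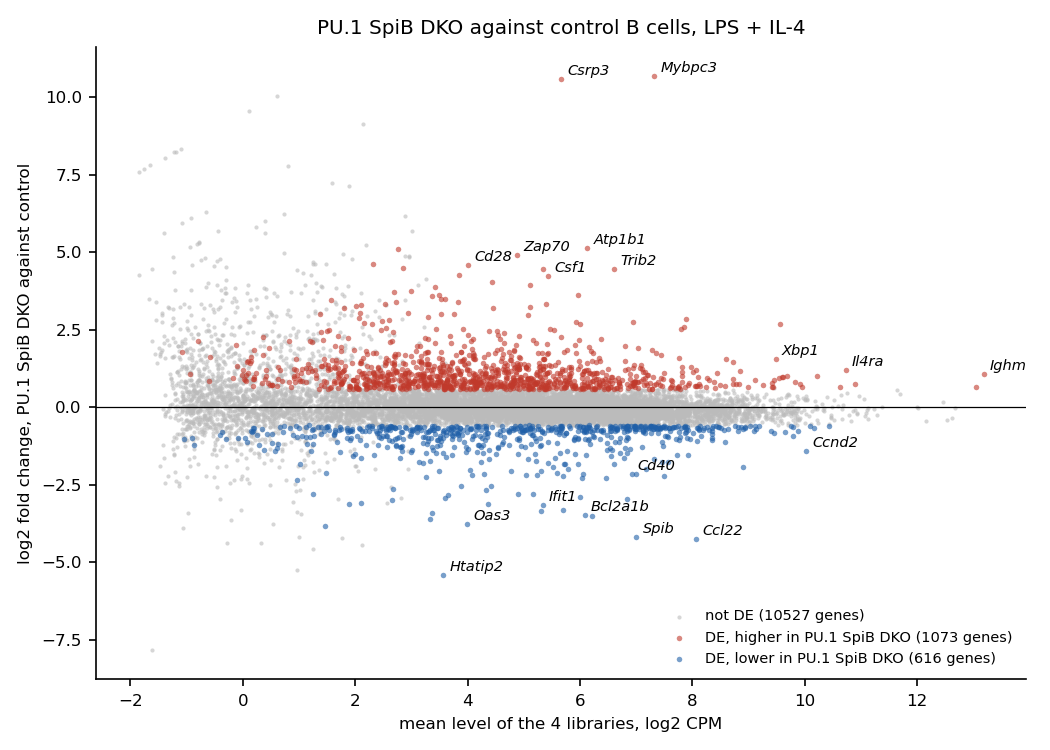
Log2 fold change of DKO against control (vertical axis) against mean log2 CPM (horizontal axis) for the 12216 genes tested in the LPS + IL-4 culture, with 1073 DE genes that were higher and 616 that were lower in colour. Grey points with large folds at the left are genes that missed the RPKM threshold or the adjusted p, and Mybpc3 and Csrp3 are the highest of the DE genes.

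Interferon-stimulated genes were lower in DKO throughout. These genes encode antiviral proteins and are switched on by type I interferon through an element made of paired GAAA steps. Of 35 on the list, all were tested, and all 35 passed the adjusted p with a lower level in DKO. The adjusted p alone was passed by 48.7% of all genes, in either direction. Of the list, 24 were DE, each of them lower (68.6% of the list against 5.04% of all genes). The median log2 fold change of the list was -1.81, and its summed level was 3050 and 3110 CPM in control and 1290 and 1320 CPM in DKO. Between 21 and 24 members were DE and lower under the 13 settings tried.

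Oas3, one of the synthetases of the second messenger that activates RNase L, stood at 27.4 and 31.8 CPM in control and 1.60 and 2.83 CPM in DKO (log2 fold change -3.76 ± 0.35, adjusted p = 6.78e-05). Rtp4, an interferon-induced transmembrane protein, stood at 19.2 and 17.8 CPM in control and 1.55 and 1.49 CPM in DKO (log2 fold change -3.60 ± 0.17, adjusted p = 2.1e-06). Ifit1, which binds viral RNA lacking a methylated cap, stood at 64.9 and 80.7 CPM in control and 6.77 and 9.60 CPM in DKO (log2 fold change -3.16 ± 0.19, adjusted p = 6.36e-06). Both control libraries lay well above both DKO libraries at each of these genes. Irf7, the factor that amplifies interferon production, stood at 38.09 and 35.4 CPM in control and 3.86 and 4.58 CPM in DKO (log2 fold change -3.12 ± 0.18, adjusted p = 4.66e-06). Cxcl10, an interferon-induced chemokine, stood at 7.88 and 7.57 CPM in control and 0.935 and 0.858 CPM in DKO (log2 fold change -3.10 ± 0.21, adjusted p = 1.14e-05), and Usp18, the protease that removes ISG15 from proteins, at 9.87 and 12.6 CPM in control and 1.501 and 1.30 CPM in DKO (log2 fold change -3.00 ± 0.21, adjusted p = 1.31e-05). Bst2, the membrane protein tetherin, fell less, from 69.1 and 90.8 CPM in control to 38.3 and 38.6 CPM in DKO (log2 fold change -1.06 ± 0.15, adjusted p = 0.000793). Ifi35 was among the 11 members that were not DE, since its fold was under 1.5, at 79.9 and 83.7 CPM in control and 53.6 and 59.2 CPM in DKO (log2 fold change -0.54 ± 0.08, adjusted p = 0.00098).

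Promoter sequences of RefSeq (250 bases before to 50 after the start, GRCm38.p6) were searched on both strands for GAAA, any 2 bases, GAAA, the core of the interferon-stimulated response element (ISRE). Of the 35 listed genes 26 had a promoter to search, some more than 1, for 33 promoters. At least 1 match was found in 17 of the 33 promoters (51.5%), which belong to 16 genes. The share was 3.15% for the promoters of all genes tested and 3.44% for all 32851 promoters of the table. Among DE genes the share was 8.64% for promoters of lower and 2.34% for those of higher genes. A match describes letters in the window and does not show a bound site. Windows of 60 bases are shown for 3 of the genes given above, 5′ to 3′ in the direction of the gene, with the match in capitals. They are taken from chr19:34640760-34640819 on the plus strand for Ifit1, where this match, the first of 2, begins 104 bases before the start, from chr5:120777700-120777759 on the minus strand for Oas3 (75 bases before) and from chr5:92349068-92349127 on the minus strand for Cxcl10 (213 bases before). Where the capitals begin with TTTC the match lies on the opposite strand.
Ifit1: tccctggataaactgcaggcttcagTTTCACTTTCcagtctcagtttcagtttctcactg
Oas3: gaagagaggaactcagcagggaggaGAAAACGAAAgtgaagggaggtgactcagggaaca
Cxcl10: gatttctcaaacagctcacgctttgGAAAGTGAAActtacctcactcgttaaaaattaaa

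**Figure D3:**
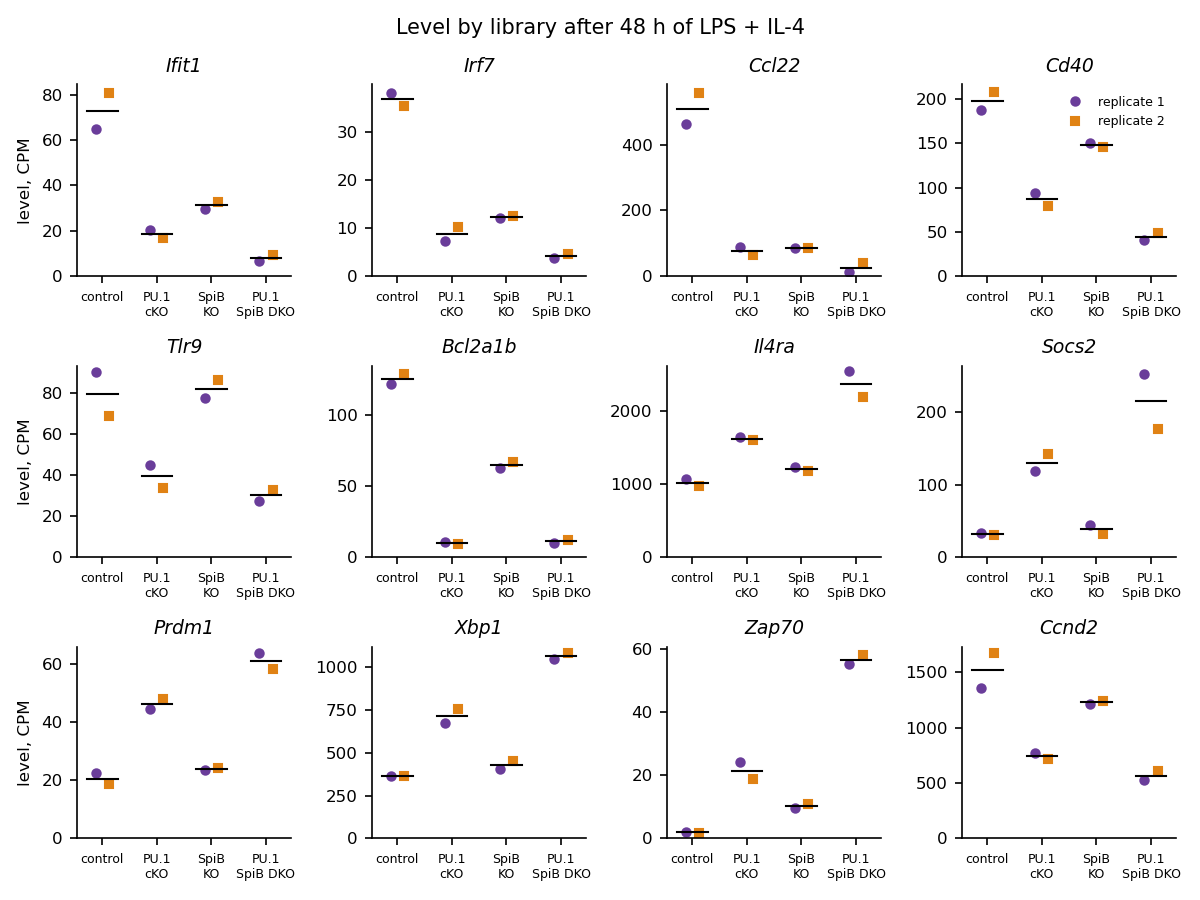
Level in CPM (vertical axis, from 0) of selected genes in each of the 8 LPS + IL-4 libraries, 2 for each of control, PU.1 cKO, SpiB KO and DKO, with points for libraries and a horizontal line for their mean. Ifit1 falls from 64.9 and 80.7 CPM in control to 6.77 and 9.60 CPM in DKO, with both single mutants in between.

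Sensors of microbial products were among the genes that fell. Of 13 tested genes of the LPS receptor and the Toll-like receptors (TLR), 7 were DE, each lower (53.8% against 5.04% of all genes), and 6 were not DE, with a median of -0.86 over the list. Ly86, which encodes MD-1 of the LPS-sensing pair, stood at 198 and 194 CPM in control and 79.4 and 81.5 CPM in DKO (log2 fold change -1.28 ± 0.09, adjusted p = 1.11e-05). Tlr9, the receptor for unmethylated CpG DNA, stood at 90.2 and 68.8 CPM in control and 27.5 and 32.8 CPM in DKO (log2 fold change -1.40 ± 0.17, adjusted p = 0.000318). At both genes the lower control library still lay far above the higher DKO library. Tlr4, the LPS receptor, fell from a low level, at 19.1 and 23.7 CPM in control and 13.8 and 14.4 CPM in DKO (log2 fold change -0.61 ± 0.12, adjusted p = 0.00514). RP105, the partner of MD-1, is encoded by Cd180, which stood at 319 and 316 CPM in control and 235 and 287 CPM in DKO and was not DE (log2 fold change -0.28 ± 0.11, adjusted p = 0.0825). Tlr1 and Tlr2, which recognise bacterial lipopeptides together, fell by 0.88 and 1.06 on the log2 scale. Cnpy3 and Unc93b1, which bring TLRs to their place in the cell, fell by 0.96 and 0.86. Tlr7, a sensor of single-stranded RNA, stood at 116 and 108 CPM in control and 144 and 124 CPM in DKO and was not DE (log2 fold change 0.26 ± 0.10, adjusted p = 0.0819).

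Downstream of the TLRs, 30 adaptor and NF-kB genes were tested, with a median of -0.10. Of these, 5 fell (16.7% against 5.04% of all genes) and 1 rose (3.33% against 8.78%). Nfkb2, the precursor of the p52 subunit, stood at 288 and 309 CPM in control and 177 and 171 CPM in DKO (log2 fold change -0.78 ± 0.08, adjusted p = 0.000123). Rel, the subunit c-Rel on which B cell division depends, stood at 95.4 and 81.6 CPM in control and 59.2 and 52.7 CPM in DKO (log2 fold change -0.66 ± 0.10, adjusted p = 0.00147). The inhibitor gene Nfkbia stood at 211 and 223 CPM in control and 129.7 and 152 CPM in DKO (log2 fold change -0.63 ± 0.09, adjusted p = 0.000801). Control exceeded DKO at all 3 in both libraries. The related nuclear proteins encoded by Nfkbiz and Nfkbid fell by 0.78 and 0.77 on the log2 scale. Tirap, the adaptor that brings MyD88 to TLR4, was the member that rose (13.2 and 13.3 CPM in control and 25.1 and 27.7 CPM in DKO, log2 fold change 0.996 ± 0.11, adjusted p = 0.000172), and Tnfaip3, which encodes the inhibitor A20, was not DE (log2 fold change -0.37 ± 0.14, adjusted p = 0.0747).

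Receptors of the TNF receptor family gave 3 falls (27.3% against 5.04% of all genes) and 1 rise (9.09% against 8.78%) among 11 tested genes, with a median of 0.01. Cd40, the receptor for T cell help, stood at 188 and 208 CPM in control and 40.6 and 48.5 CPM in DKO (log2 fold change -2.15 ± 0.12, adjusted p = 4.31e-06). Tnfrsf13c, the BAFF receptor on which mature B cells depend to survive, stood at 426 and 441 CPM in control and 204 and 231 CPM in DKO (log2 fold change -0.995 ± 0.09, adjusted p = 7.37e-05). Tnfrsf13b, which encodes TACI, stood at 185 and 198 CPM in control and 116 and 135 CPM in DKO (log2 fold change -0.61 ± 0.11, adjusted p = 0.00343). The 3 receptors for CD40L and for BAFF and its relative were thus each lower in both DKO libraries than in both control libraries, Cd40 by the most. Tnfrsf1b, the second TNF receptor, rose (log2 fold change 0.79 ± 0.09, adjusted p = 0.000184), and Tnfrsf8, which encodes CD30, stood at 51.3 and 73.4 CPM in control and 78.8 and 91.8 CPM in DKO and was not DE (log2 fold change 0.45 ± 0.16, adjusted p = 0.0559).

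The promoters were also searched for GAGGAAGT, a form of the site that PU.1 and SpiB prefer. It was present in 6.39% of the 579 promoters of DE genes that fell, in 4.03% of the 942 of DE genes that rose and in 3.08% of those of genes that were not DE, and in 3.20% of all promoters of the table. The letters CCGGAAGT, the core that most other ETS factors prefer, were found in 7.25%, 2.34% and 9.30% in the same order and in 3.89% of all promoters. The 2 words share the letters GGAAGT but cannot overlap at the same position. Windows are shown for genes of survival, NF-kB, TLR and B cell receptor control that fell, with GAGGAAGT (or ACTTCCTC where it lies on the opposite strand) in capitals. The word also lay before Dusp5 and Sh3bp2, which rose, and before Grb2, Gabpa and Rasgrp3, which were not DE, and their windows are not shown. Bcl2a1b is taken from chr9:89199099-89199158 on the plus strand, Bcl2a1d from chr9:88731921-88731980 on the minus strand, Rel from chr11:23771125-23771184 on the minus strand, Nfkbid from chr7:30423133-30423192 on the plus strand, Tlr1 from chr5:64933559-64933618 on the minus strand and Cd72 from chr4:43454642-43454701 on the minus strand (RefSeq, GRCm38.p6). The matches begin 148, 104, 189, 116, 23 and 49 bases before the start, and the near-identical windows of the first pair show how alike the A1 copies are.
Bcl2a1b: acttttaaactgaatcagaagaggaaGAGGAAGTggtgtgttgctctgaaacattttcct
Bcl2a1d: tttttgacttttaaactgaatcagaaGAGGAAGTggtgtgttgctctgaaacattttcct
Rel: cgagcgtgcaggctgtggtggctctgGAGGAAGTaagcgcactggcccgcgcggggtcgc
Nfkbid: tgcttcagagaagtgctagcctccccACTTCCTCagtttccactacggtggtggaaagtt
Tlr1: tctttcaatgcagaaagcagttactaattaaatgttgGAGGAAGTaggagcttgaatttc
Cd72: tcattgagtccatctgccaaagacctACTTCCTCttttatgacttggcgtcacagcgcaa

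A longer word, GGAA, any 2 bases, GAAA, joins an ETS core to an IRF core as in the composite elements that PU.1 and SpiB share with IRF4 and IRF8. It was found in 3.45% of promoters of DE genes that fell, in 2.76% of those that rose, in 2.22% of those of genes not DE and in 2.72% of all promoters. Matches lay, for example, before Pdcd1 and Il6st, which rose, and before Bcl6 and Bach2, which were not DE. Fcgr2b, which encodes the inhibitory Fc receptor of B cells, holds 1 such match beginning 35 bases before its start, shown in capitals on the opposite strand of the window from chr1:170976072-170976131 on the minus strand.
Fcgr2b: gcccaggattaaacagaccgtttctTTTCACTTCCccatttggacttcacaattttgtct

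The IL-4 receptor itself was higher in DKO. Il4ra, the chain that binds IL-4, stood at 1071 and 974 CPM in control and 2548 and 2190.1 CPM in DKO (log2 fold change 1.21 ± 0.11, adjusted p = 5.41e-05) and did not overlap between the groups. Of 17 tested genes of the receptor and of STAT6-dependent genes, 7 rose (41.2% against 8.78% of all genes) and 2 fell (11.8% against 5.04%), with a median of 0.34. Socs2, an inhibitor of cytokine signals, stood at 33.5 and 30.5 CPM in control and 252 and 176 CPM in DKO (log2 fold change 2.74 ± 0.20, adjusted p = 1.61e-05). Irs2, the adaptor that links the IL-4 receptor to PI3K, stood at 6.15 and 4.53 CPM in control and 27.6 and 25.8 CPM in DKO (log2 fold change 2.34 ± 0.22, adjusted p = 6.31e-05). Gfi1, a repressor that IL-4 induces in lymphocytes, stood at 1.47 and 0.845 CPM in control and 16.5 and 13.1 CPM in DKO (log2 fold change 3.77 ± 0.26, adjusted p = 1.3e-05). At each of these genes both DKO libraries lay far above both control libraries. The 2 members that fell are both induced by IL-4 in B cells. They were Ccl22 and Fcer2a, which encodes CD23 and stood at 792 and 717 CPM in control and 212 and 182 CPM in DKO (log2 fold change -1.94 ± 0.13, adjusted p = 1.1e-05). Both groups carried the Cd23-Cre transgene, and whether its activity differed between them was not tested.

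Cytokine receptors moved in both directions, with 3 rises (14.3% against 8.78% of all genes) and 4 falls (19.0% against 5.04%) among 21 tested. Il2rb, the beta chain of the receptors for IL-2 and IL-15, stood at 2.60 and 5.39 CPM in control and 58.2 and 72.4 CPM in DKO (log2 fold change 3.96 ± 0.36, adjusted p = 6.33e-05). Il2ra, its alpha chain CD25, stood at 40.5 and 55.5 CPM in control and 99.1 and 84.8 CPM in DKO (log2 fold change 0.93 ± 0.18, adjusted p = 0.00356). Both chains were thus higher in each DKO library than in each control library. Il6st, the shared chain gp130 of the IL-6 family receptors, rose (0.77 ± 0.13 on the log2 scale), whereas Il6ra, the chain that binds IL-6, fell (-1.20 ± 0.25). Flt3, a receptor of early progenitors and dendritic cells, stood at 25.1 and 27.4 CPM in control and 6.74 and 6.29 CPM in DKO (log2 fold change -2.01 ± 0.17, adjusted p = 3.61e-05), and Il10ra fell (-1.14 ± 0.14).

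Of 17 tested chemokine and cytokine genes, 6 rose (35.3% against 8.78% of all genes) and 7 fell (41.2% against 5.04%). Ebi3, the subunit that IL-27 and IL-35 share, stood at 73.7 and 82.2 CPM in control and 15.01 and 21.2 CPM in DKO (log2 fold change -2.11 ± 0.16, adjusted p = 1.94e-05). Ccl5, a chemokine of inflammation, fell from 6.71 and 6.33 CPM to 2.26 and 1.91 CPM (log2 fold change -1.63 ± 0.19, adjusted p = 0.000248). With Ccl22 and Cxcl10 above, the chemokines named here all fell. Vegfa, the growth factor of blood vessels, rose (log2 fold change 1.77 ± 0.29, adjusted p = 0.00172), as did Csf1.

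Genes of the B cell receptor (BCR) and its co-receptors were split, 4 higher and 4 lower of 15 tested (26.7% each, against 8.78% and 5.04% of all genes). Cd79a, the signal chain Ig-alpha, rose (log2 fold change 0.65 ± 0.12, adjusted p = 0.0034 for the levels given above), and Cd79b, its partner Ig-beta, stood at 987 and 808 CPM in control and 1055 and 1148 CPM in DKO and was not DE (log2 fold change 0.29 ± 0.12, adjusted p = 0.095). Cd22, a lectin that dampens the BCR signal, stood at 448 and 348 CPM in control and 671 and 578 CPM in DKO (log2 fold change 0.65 ± 0.12, adjusted p = 0.00356). Siglecg, a related inhibitory lectin, stood at 64.1 and 46.4 CPM in control and 22.6 and 24.4 CPM in DKO (log2 fold change -1.23 ± 0.16, adjusted p = 0.000513). The 2 lectins therefore moved in opposite directions, each without overlap between the groups. Siglecg lies 1.11 Mb from Spib, and in SpiB KO it stood at 76.0 and 72.5 CPM. Fcgr2b stood at 89.9 and 101 CPM in control and 41.5 and 50.5 CPM in DKO (log2 fold change -1.05 ± 0.11, adjusted p = 0.000155). Cd72, an inhibitory receptor of the lectin type, and the tetraspanin Cd37, 0.702 Mb from Spib, fell by 0.80 and 0.65 on the log2 scale, while the tetraspanins Cd81 and Cd9 rose by 0.68 and 0.86. Ms4a1, which encodes CD20, stood at 936 and 878 CPM in control and 647 and 639 CPM in DKO and was not DE, its fold being under 1.5 (log2 fold change -0.50 ± 0.09, adjusted p = 0.00235).

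Of 40 tested kinases and adaptors of the BCR signal, 5 rose (12.5% against 8.78% of all genes) and 4 fell (10.0% against 5.04%), with a median of 0.12. Btk, the kinase whose loss causes agammaglobulinaemia, stood at 206 and 172 CPM in control and 118 and 118 CPM in DKO (log2 fold change -0.68 ± 0.11, adjusted p = 0.00192). Prkcd, protein kinase C delta, stood at 274 and 228 CPM in control and 137 and 121 CPM in DKO (log2 fold change -0.95 ± 0.13, adjusted p = 0.000724). For both kinases the highest DKO library lay below the lowest control library. Pik3ap1, the PI3K adaptor BCAP, fell by 0.79 on the log2 scale. The members that rose included the Src-family kinase Blk (0.68 ± 0.13), the adaptor Sh3bp2 (0.71 ± 0.15) and the exchange factor Vav3 (0.74 ± 0.16). Blnk, the adaptor that brings BTK to PLCG2, stood at 315 and 293 CPM in control and 237 and 256 CPM in DKO (log2 fold change -0.30 ± 0.08, adjusted p = 0.0171), Rasgrp3 at 135 and 117 CPM in control and 77.6 and 90.8 CPM in DKO (log2 fold change -0.58 ± 0.14, adjusted p = 0.012) and Plcg2 at 411 and 371 CPM in control and 434 and 431 CPM in DKO (log2 fold change 0.15 ± 0.09, adjusted p = 0.237), and none of these was DE.

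Of 15 tested phosphatases and adaptors that restrain the BCR signal, 5 were DE, each higher in DKO (33.3% against 8.78% of all genes). The median was 0.36. Dok3, an adaptor that recruits inhibitory phosphatases, stood at 19.4 and 9.27 CPM in control and 32.2 and 32.4 CPM in DKO (log2 fold change 1.20 ± 0.29, adjusted p = 0.0109). Dok2, a relative, stood at 2.64 and 1.51 CPM in control and 7.21 and 6.90 CPM in DKO (log2 fold change 1.82 ± 0.26, adjusted p = 0.000768). Ptpn22, a phosphatase linked to autoimmunity, stood at 44.9 and 34.8 CPM in control and 71.0 and 71.9 CPM in DKO (log2 fold change 0.85 ± 0.11, adjusted p = 0.000577). The groups did not overlap at any of them. Pag1, which anchors the inhibitory kinase CSK, rose by 0.60 on the log2 scale, and the receptor phosphatase gene Ptprj, 0.502 Mb from Spi1, by 0.71.

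Among 14 tested ETS factors other than PU.1 and SpiB, 1 rose and 1 fell (7.14% each, against 8.78% and 5.04% of all genes). Ets1, the ETS factor that restrains the formation of plasma cells, stood at 258 and 195 CPM in control and 651 and 587 CPM in DKO (log2 fold change 1.45 ± 0.13, adjusted p = 5.41e-05). Etv6, a repressor of the family, stood at 81.6 and 84.2 CPM in control and 39.1 and 43.7 CPM in DKO (log2 fold change -1.004 ± 0.08, adjusted p = 3.66e-05). Each moved without overlap between the groups, in opposite directions. Elf1 stood at 199 and 181 CPM in control and 239 and 231 CPM in DKO and Gabpa at 182 and 192 CPM in control and 144 and 145 CPM in DKO, with folds under 1.5 in both.

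Of 32 tested regulators of B cell identity and activation, 5 rose (15.6% against 8.78% of all genes) and 2 fell (6.25% against 5.04%), with a median of 0.22. Foxo1, the factor that PI3K signals switch off, stood at 141 and 120.5 CPM in control and 328 and 318 CPM in DKO (log2 fold change 1.30 ± 0.09, adjusted p = 1.69e-05). Pou2af1, the B cell co-activator OBF-1, stood at 794 and 772 CPM in control and 1693 and 1494 CPM in DKO (log2 fold change 1.03 ± 0.10, adjusted p = 0.000106). Irf8, a partner of PU.1 and SpiB on composite sites, stood at 566 and 504 CPM in control and 849.7 and 836 CPM in DKO (log2 fold change 0.66 ± 0.09, adjusted p = 0.000638). Each was higher in both DKO libraries. Klf2, which keeps lymphocytes quiescent, and Bhlhe41, a repressor prominent in B-1 cells, rose by 0.93 and 1.35 on the log2 scale, and Mef2b, a germinal centre factor, fell by 1.22. Pax5, the factor that maintains B cell identity, stood at 149 and 123 CPM in control and 104 and 89.2 CPM in DKO, and its fold was under 1.5 (log2 fold change -0.49 ± 0.13, adjusted p = 0.0183). The same held for Bach2, a repressor of plasma cell formation (log2 fold change -0.28 ± 0.10, adjusted p = 0.0499), and Bcl6, the germinal centre repressor, did not pass the test (log2 fold change 0.50 ± 0.27, adjusted p = 0.184).

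Genes of antibody-secreting cells were higher in DKO although cells bearing CD138 had been sorted out. Of 31 plasma cell genes tested, 18 rose and 1 fell (58.1% higher against 8.78% of all genes), with a median of 0.88. Prdm1, which encodes the plasma cell regulator Blimp-1, stood at 22.6 and 18.5 CPM in control and 63.6 and 58.0 CPM in DKO (log2 fold change 1.57 ± 0.12, adjusted p = 2.04e-05). Xbp1, the factor that expands the secretory apparatus, stood at 365 and 363 CPM in control and 1047 and 1084 CPM in DKO (log2 fold change 1.55 ± 0.09, adjusted p = 6.36e-06). Irf4, which plasma cells require, stood at 263 and 321 CPM in control and 482 and 466 CPM in DKO (log2 fold change 0.70 ± 0.10, adjusted p = 0.000987). The DKO libraries lay above the control libraries at all 3. Ell2, the elongation factor that favours the secreted form of the heavy chain, stood at 64.9 and 67.0 CPM in control and 434 and 355 CPM in DKO (log2 fold change 2.58 ± 0.10, adjusted p = 7.38e-07). Bhlha15, which encodes MIST1, stood at 6.28 and 6.63 CPM in control and 35.8 and 34.9 CPM in DKO (log2 fold change 2.45 ± 0.14, adjusted p = 4.92e-06). Igj, the J chain that joins IgM and IgA units, stood at 2.12 and 1.35 CPM in control and 14.7 and 12.6 CPM in DKO (log2 fold change 3.04 ± 0.25, adjusted p = 3.59e-05). These genes, too, had no overlap between the groups. Trib1 and Cebpb rose by 2.20 and 1.04 on the log2 scale. Cd28 and Slpi, given above, also belong to the list, and Slamf7, a surface receptor of plasma cells, stood at 109.9 and 111 CPM in control and 179 and 145 CPM in DKO with a fold under 1.5. Sdc1, the gene of CD138 itself, had 198 and 422 raw counts in control and 332 and 239 in DKO. These are not scaled to the library totals, which were 22757630 and 56388071 in control and 39234563 and 31238525 in DKO.

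The endoplasmic reticulum (ER) is where antibody is folded. Of 39 chaperones and genes of the unfolded protein response, 11 rose (28.2% against 8.78% of all genes) and 1 fell, with a median of 0.43. The adjusted p alone was passed by 31 of them with a higher level in DKO, and by 48.7% of all genes in either direction. Pdia4, a disulfide isomerase, stood at 499.8 and 501 CPM in control and 861 and 879.9 CPM in DKO (log2 fold change 0.80 ± 0.09, adjusted p = 0.000154). Dnajb9, a co-chaperone induced by XBP1, stood at 24.2 and 25.6 CPM in control and 46.5 and 48.1 CPM in DKO (log2 fold change 0.92 ± 0.11, adjusted p = 0.000225). Both DKO libraries were higher at each. The most abundant chaperones changed less, Hspa5 (BiP) standing at 1805 and 2061 CPM in control and 2301 and 2383 CPM in DKO (log2 fold change 0.28 ± 0.11, adjusted p = 0.0734) and Hsp90b1 at 1704 and 1809.7 CPM in control and 2374 and 2158 CPM in DKO (log2 fold change 0.37 ± 0.11, adjusted p = 0.0309), with folds under 1.5. Trib3, a target of the stress factors ATF4 and CHOP, rose by 1.43 on the log2 scale, and Atf3 fell. Of 49 tested genes of translocation into the ER and transport out of it, 5 were DE, each higher (10.2%, near the 8.78% of all genes). Sec24d, a coat protein of vesicles that leave the ER, stood at 15.2 and 11.4 CPM in control and 62.3 and 55.3 CPM in DKO (log2 fold change 2.16 ± 0.14, adjusted p = 1.07e-05), and Tram1, a partner of the translocation channel, at 166 and 161 CPM in control and 374 and 373 CPM in DKO (log2 fold change 1.19 ± 0.08, adjusted p = 8.64e-06). Kdelr1, the receptor that returns ER proteins, rose by 0.99 and lies 1.34 Mb from Spib.

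**Figure D4:**
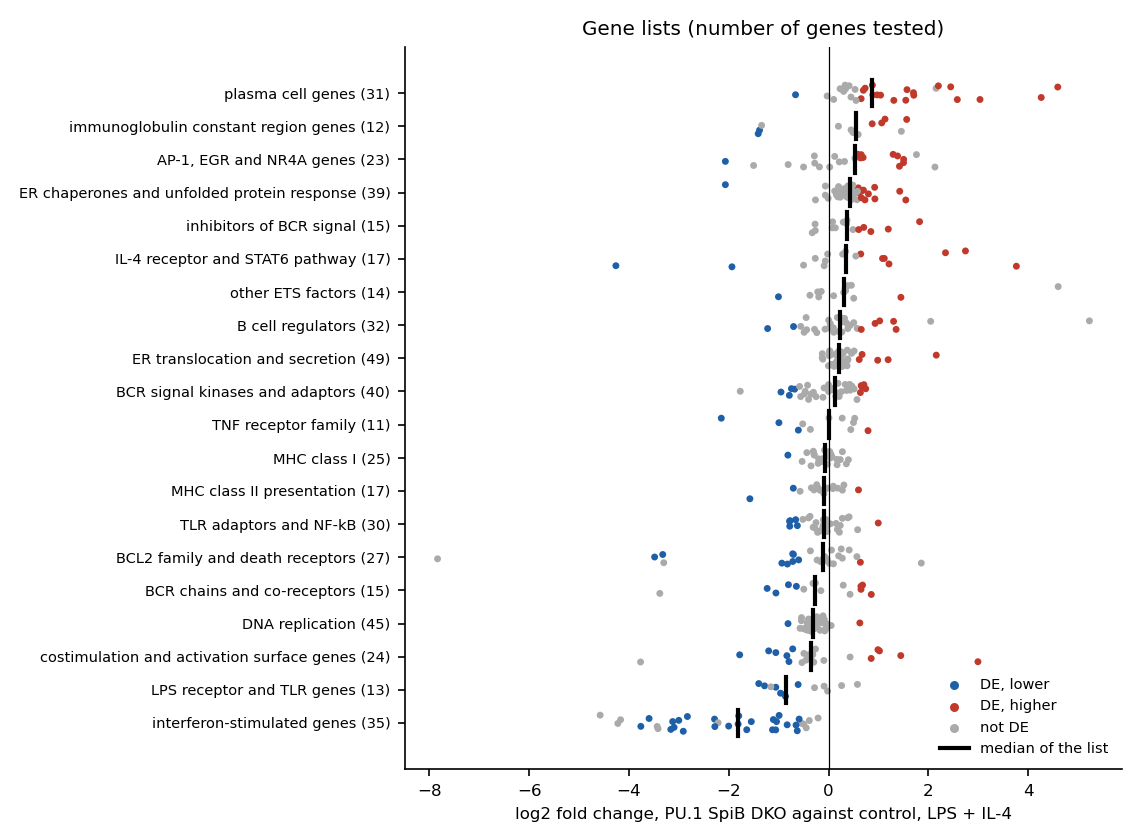
Log2 fold change of DKO against control (horizontal axis) for each tested member of 20 of the 36 gene lists, 1 point a gene, with the list median as a vertical line and the number of tested genes beside the name. Of the lists shown, the interferon-stimulated genes have the lowest median (-1.81) and the plasma cell genes the highest (0.88).

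Immunoglobulin constant region genes differed by class, with 4 higher (33.3% against 8.78% of all genes) and 2 lower (16.7% against 5.04%) of 12 tested. Ighm, the constant region of IgM, stood at 6043 and 5994 CPM in control and 12802 and 12395 CPM in DKO (log2 fold change 1.07 ± 0.13, adjusted p = 0.000319). Ighg1, the constant region of IgG1, stood at 129 and 152 CPM in control and 328 and 288 CPM in DKO (log2 fold change 1.13 ± 0.11, adjusted p = 7.31e-05). Ighe, the IgE constant region, stood at 31.2 and 28.8 CPM in control and 12.4 and 10.5 CPM in DKO (log2 fold change -1.38 ± 0.21, adjusted p = 0.00118). The IgM and IgG1 genes were therefore higher and the IgE gene lower in both DKO libraries. Ighg3 and the lambda gene Iglc1 rose by 1.57 and 0.88 on the log2 scale, Ighg2b fell by 1.41 from 3.77 and 3.02 CPM, and Igkc, at 1432 and 1474 CPM in control and 1982 and 1990.1 CPM in DKO, had a fold under 1.5. Constant region genes resemble each other, so reads may be split between them, and the counts hold germline transcripts together with those of switched cells.

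Over the 33 tested genes of class switching and DNA repair, 3 rose and 3 fell (9.09% each, against 8.78% and 5.04% of all genes). H2afx, the histone variant that marks DNA breaks, rose by 0.82 on the log2 scale, while the break-sensing kinase Atm fell by 0.92 and the endonuclease gene Apex1 by 0.80.

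The BCL2 family and death receptors, which govern survival, had 27 genes tested, with a median of -0.11. Of these, 8 fell (29.6% against 5.04% of all genes) and 1 rose (3.7% against 8.78%). The A1 genes Bcl2a1b and Bcl2a1d, given above, moved most. Bcl2, the founding survival protein, stood at 44.0 and 44.4 CPM in control and 25.7 and 24.2 CPM in DKO (log2 fold change -0.82 ± 0.11, adjusted p = 0.000594). Genes that promote death fell as well, Pmaip1 (Noxa) by 0.94, Bbc3 (Puma) by 0.72 and Bid by 0.72 on the log2 scale. Mcl1, a survival protein that B cells require, stood at 482 and 432 CPM in control and 532 and 558 CPM in DKO, with a fold under 1.5.

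Regulators of entry into the cell cycle came out in both directions. Ccnd2, the D-type cyclin that B cells use after activation, stood at 1363 and 1676 CPM in control and 524 and 609 CPM in DKO (log2 fold change -1.42 ± 0.12, adjusted p = 4.33e-05). Cdkn2d, an inhibitor of its kinase, stood at 21.5 and 16.5 CPM in control and 47.2 and 46.0 CPM in DKO (log2 fold change 1.30 ± 0.13, adjusted p = 9.85e-05). Cdkn1a, which encodes p21, stood at 8.18 and 8.55 CPM in control and 17.9 and 15.8 CPM in DKO (log2 fold change 1.01 ± 0.14, adjusted p = 0.000788). Cyclin D2 was thus lower, and these inhibitors were higher, in both DKO libraries. Cdkn2c rose by 0.99 and E2f2, a transcription factor of the S phase genes, by 1.27 on the log2 scale. The whole list of G1 genes gave 5 rises (23.8% against 8.78% of all genes) and 1 fall (4.76% against 5.04%) among 21. Of 45 DNA replication genes, 32 passed the adjusted p with a lower level in DKO but with folds under 1.5, apart from Pold1 beside Spib. That adjusted p was passed by 48.7% of all genes, in either direction. The median of this list was -0.31, with the helicase subunit Mcm3 at 797 and 942 CPM in control and 642 and 681 CPM in DKO (log2 fold change -0.39 ± 0.10, adjusted p = 0.0133). Pole2, a subunit of DNA polymerase epsilon, was the 1 member that rose (log2 fold change 0.63 ± 0.11, adjusted p = 0.00258). Of 40 mitotic genes 2 were DE, each higher (5.0% against 8.78% of all genes). Cdc25b, a phosphatase that activates the mitotic kinase, stood at 39.9 and 50.2 CPM in control and 182 and 173 CPM in DKO (log2 fold change 1.98 ± 0.14, adjusted p = 1.44e-05).

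Surface genes that B cells use with T cells changed in both directions, with a median of -0.35. Of 24 tested, 5 were higher (20.8% against 8.78% of all genes) and 6 lower (25% against 5.04%). Cd86, the ligand of CD28, stood at 72.6 and 61.9 CPM in control and 17.5 and 21.6 CPM in DKO (log2 fold change -1.78 ± 0.14, adjusted p = 3.1e-05). Icosl, the ligand of ICOS, stood at 9.87 and 6.61 CPM in control and 4.31 and 3.50 CPM in DKO (log2 fold change -1.06 ± 0.21, adjusted p = 0.00508). Slamf1, a receptor of the SLAM family, stood at 16.4 and 15.3 CPM in control and 7.70 and 6.01 CPM in DKO (log2 fold change -1.20 ± 0.15, adjusted p = 0.000389). All 3 were lower in both DKO libraries. Cd24a, a surface marker high on immature B cells, stood at 132 and 167 CPM in control and 308 and 299 CPM in DKO (log2 fold change 1.02 ± 0.13, adjusted p = 0.000422), and the inhibitory receptor Pdcd1 (PD-1) at 4.63 and 5.03 CPM in control and 12.4 and 14.1 CPM in DKO (log2 fold change 1.45 ± 0.13, adjusted p = 6.6e-05). Ctla4, which competes with CD28 for its ligands, rose from under 1 CPM to 5.88 and 3.31 CPM (log2 fold change 2.99 ± 0.51, adjusted p = 0.00214).

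The most abundant genes of antigen presentation to T cells did not pass the thresholds. H2-Aa, a chain of MHC class II, stood at 2933 and 2503 CPM in control and 2174 and 2439 CPM in DKO (log2 fold change -0.24 ± 0.13, adjusted p = 0.198), and Cd74, the invariant chain, at 7692 and 6355 CPM in control and 5232 and 5836 CPM in DKO (log2 fold change -0.34 ± 0.15, adjusted p = 0.116). Neither was DE. Of 17 tested genes of the class II pathway, 1 rose (5.88% against 8.78% of all genes) and 2 fell (11.8% against 5.04%). Lgmn, a protease of the endosome, stood at 168 and 114 CPM in control and 48.4 and 46.1 CPM in DKO (log2 fold change -1.58 ± 0.21, adjusted p = 0.000488), Ctss, the protease that trims the invariant chain, fell by 0.71 on the log2 scale, and H2-DMb1, which helps to load peptides, rose by 0.60. Of 25 MHC class I genes 1 was DE, and it was lower (4.0% against 5.04% of all genes).

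Homing receptors and integrins gave 6 rises (21.4% against 8.78% of all genes) and 4 falls (14.3% against 5.04%) among 28 tested. S1pr1, the receptor by which lymphocytes leave lymph nodes, stood at 53.8 and 30.4 CPM in control and 92.5 and 97.7 CPM in DKO (log2 fold change 1.19 ± 0.22, adjusted p = 0.00323). Itga6, an integrin for laminin, stood at 15.8 and 10.4 CPM in control and 84.0 and 65.9 CPM in DKO (log2 fold change 2.53 ± 0.22, adjusted p = 4.95e-05). Itgal, a chain of LFA-1, stood at 447 and 437 CPM in control and 211 and 216 CPM in DKO (log2 fold change -1.05 ± 0.08, adjusted p = 3.16e-05). The first pair was higher, and the third lower, in both DKO libraries. S1pr4 and Itgb3 rose by 1.11 and 1.31 on the log2 scale, and the chemokine receptor Ccr6 fell by 1.08.

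Of 23 tested early-response genes of the AP-1, EGR and NR4A families, 9 rose (39.1% against 8.78% of all genes) and 1 fell (4.35% against 5.04%). The median was 0.53. Jun, a subunit of AP-1, stood at 46.3 and 39.8 CPM in control and 120.0 and 124 CPM in DKO (log2 fold change 1.51 ± 0.09, adjusted p = 8.17e-06). Egr2, a factor induced by antigen receptors, stood at 7.66 and 7.55 CPM in control and 21.3 and 21.8 CPM in DKO (log2 fold change 1.503 ± 0.14, adjusted p = 7.34e-05). Nr4a1, an early reporter of the BCR signal, stood at 4.72 and 3.54 CPM in control and 11.8 and 9.41 CPM in DKO (log2 fold change 1.38 ± 0.22, adjusted p = 0.00135). The DKO libraries were above the control libraries at each. Dusp5, a phosphatase of the MAP kinase ERK, rose by 1.42. Atf3 was the member that fell, at 14.6 and 21.7 CPM in control and 4.36 and 4.35 CPM in DKO (log2 fold change -2.07 ± 0.20, adjusted p = 9.33e-05), and Batf, a partner of JUN in switching B cells, had a fold under 1.5, at 173 and 201 CPM in control and 132 and 132 CPM in DKO.

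Markers of other cells were examined because several rises concerned genes known from T cells. Of 25 T and NK cell markers 10 were tested and 6 were DE, each higher (60% against 8.78% of all genes), with a median of 1.75. The summed level of those tested was 83.0 and 73.4 CPM in control and 306 and 300.0 CPM in DKO. Lck, the T cell kinase, stood at 18.4 and 17.9 CPM in control and 59.9 and 63.3 CPM in DKO (log2 fold change 1.77 ± 0.09, adjusted p = 3.34e-06), Thy1 at 39.0 and 30.8 CPM in control and 125 and 106 CPM in DKO (log2 fold change 1.74 ± 0.14, adjusted p = 3.03e-05) and Lat, the adaptor that ZAP70 phosphorylates, at 0.303 and 0.611 CPM in control and 5.29 and 5.69 CPM in DKO (log2 fold change 3.46 ± 0.34, adjusted p = 9.83e-05). Cd2 and the pore-forming protein gene Prf1 rose by 1.40 and 3.32 on the log2 scale. Of the genes that define these lineages, Cd3d, Cd3e, Cd3g and Cd4 had 0 to 5 counts in the 4 libraries, Cd8a 0 to 8, Klrb1c 2 to 6 and Ncr1 0. The cytotoxic genes Nkg7, Gzma and Gzmb had 7, 11 and 14 counts in DKO replicate 1 and 0 to 1 in the other libraries. Cd8b1 had 27 and 36 counts in control and 4 and 0 in DKO. Markers of plasmacytoid dendritic cells gave 2 rises (25% against 8.78% of all genes) and 1 fall (12.5% against 5.04%) among 8 tested. Atp1b1 and Ly6d (0.82 ± 0.13) rose, and Bst2 fell. The summed level of the 8 was 587 and 518 CPM in control and 842 and 929 CPM in DKO. Tcf4 stood at 148 and 131 CPM in control and 162 and 169 CPM in DKO, and Siglech, the defining gene, had 0 to 1 counts. Ccr9, a chemokine receptor gene on that list, had 18 and 42 counts in control and 179 and 175 in DKO (log2 fold change 2.70 ± 0.29, adjusted p = 0.000159), below the RPKM threshold for DE. Of macrophage markers 5 were tested and 2 fell (40.0% against 5.04% of all genes). The adhesion receptor gene Emr1 stood at 14.5 and 8.73 CPM in control and 4.60 and 4.32 CPM in DKO (log2 fold change -1.36 ± 0.29, adjusted p = 0.00623). Their summed level was 21.6 and 13.5 CPM in control and 9.01 and 8.20 CPM in DKO, and Csf1r and Lyz2 had 0 to 1 counts. The 1 tested gene of the neutrophil, erythroid and platelet list was not DE. Among 14 B cell markers 3 rose (21.4% against 8.78% of all genes) and 2 fell (14.3% against 5.04%).

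The single mutants of the same culture were set beside the DKO. The same DKO libraries entered the contrasts with control and with each single mutant, so each contrast is given on its own: 37.1% of all genes differed between DKO and PU.1 cKO and 30.9% between DKO and SpiB KO at an adjusted p under 0.15. Cd28 stood at 5.04 and 3.67 CPM in PU.1 cKO and 1.89 and 1.61 CPM in SpiB KO, against 31.6 and 29.97 CPM in DKO, which exceeded PU.1 cKO by 2.80 (adjusted p = 0.000528) and SpiB KO by 4.11 (adjusted p = 5.08e-05) on the log2 scale. Trib2 stood at 47.0 and 51.2 CPM and 19.7 and 18.8 CPM in the same order, and DKO exceeded them by 1.92 (adjusted p = 0.000108) and 3.27 (adjusted p = 8e-06). Fcer2a, at 621 and 497 CPM and 474 and 435 CPM, differed from DKO likewise, DKO minus each being -1.50 (adjusted p = 0.000217) and -1.21 (adjusted p = 0.000299). For these genes neither single mutant came close to the DKO level.

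Other genes had a DKO value near that of 1 single mutant. Bcl2a1b stood at 10.9 and 9.13 CPM in PU.1 cKO and 62.3 and 66.5 CPM in SpiB KO, and DKO differed from PU.1 cKO by 0.14 (adjusted p = 0.425) and from SpiB KO by -2.53 (adjusted p = 8e-06). Cd86 stood at 23.5 and 20.1 CPM and 63.9 and 73.0 CPM, with differences of -0.16 (adjusted p = 0.445) and -1.81 (adjusted p = 7.28e-05). Il2rb was likewise as high in PU.1 cKO, at 41.5 and 80.2 CPM, as in DKO, and Irf4 stood at 458 and 503 CPM in PU.1 cKO. For these genes the difference between DKO and PU.1 cKO did not pass the test, and that from SpiB KO did. The interferon-stimulated genes lay between: Ifit1 stood at 20.5 and 16.8 CPM in PU.1 cKO and 29.8 and 32.9 CPM in SpiB KO, DKO minus each being -1.20 (adjusted p = 0.00388) and -1.94 (adjusted p = 0.000188), and the median of the list against the shared control libraries reached -1.09 for PU.1 cKO, -0.67 for SpiB KO and -1.81 for DKO. For the plasma cell list these medians were 0.70, 0.04 and 0.88.

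The second culture, with CD40L in place of LPS, had its own 2 control and 2 DKO libraries, so the double loss could be compared between cultures by an interaction term (16 libraries). Its log2 value is the effect in LPS + IL-4 minus that in CD40L + IL-4, and 4201 genes passed an adjusted p under 0.15 (34.4%), 1936 with a more negative effect in LPS + IL-4 (15.8%) and 2265 with a more positive one (18.5%). This count was 1755 without control replicate 2 of the LPS culture, 2258 without DKO replicate 1 of the LPS culture and 2255 without DKO replicate 2 of the CD40L culture. Among the 1689 DE genes, 768 also changed in the same direction at an adjusted p under 0.15 with CD40L + IL-4 (45.5%, against 23.6% of all genes) and 172 in the opposite one (10.2%, against 16.1%).

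**Figure D5:**
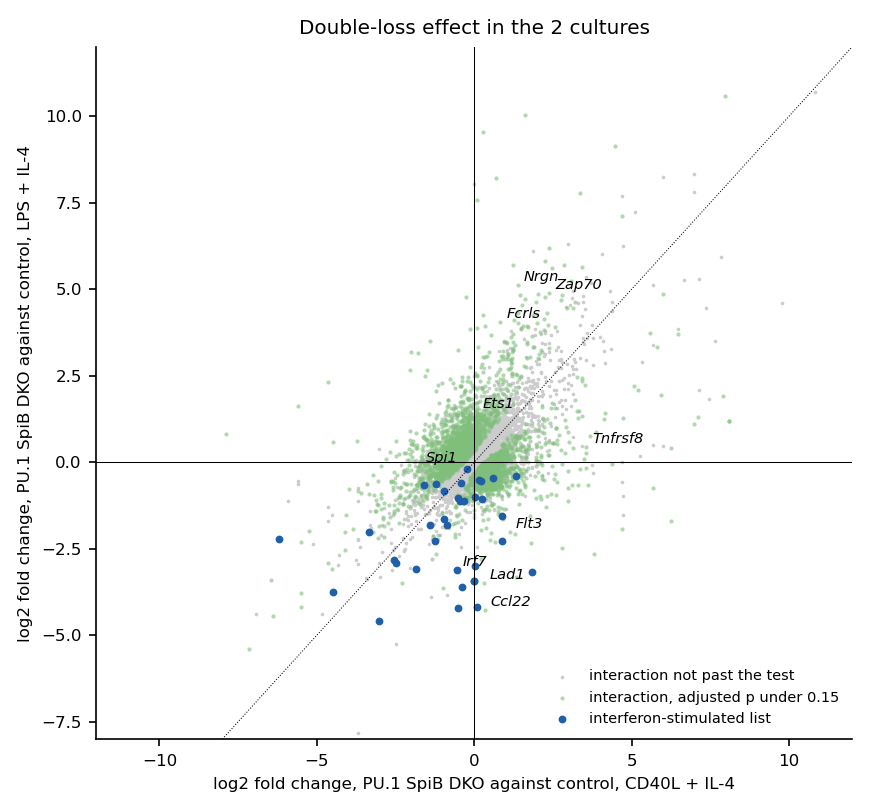
Log2 fold change of DKO against control in the CD40L + IL-4 culture (horizontal axis) and in the LPS + IL-4 culture (vertical axis) for the 12216 genes, with the 4201 genes whose effects differ between cultures in green and the interferon-stimulated list in blue. Most of the blue points lie below the dotted line of equal effects, 20 of 35 of them with a more negative effect in LPS + IL-4 past the test, and folds of genes with few counts in the CD40L culture are uncertain.

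Of the 35 interferon-stimulated genes, 22 passed the interaction test, 20 of them with the more negative effect in LPS + IL-4 (against 34.4% and 15.8% of all genes). The median of the list was -0.44 with CD40L. In CD40L + IL-4 Ifit1 stood at 0 and 0.211 CPM in control and 0.652 and 0.0953 CPM in DKO, near the counting floor in both genotypes, so no fold is given there. Irf7 stood at 1.75 and 3.37 CPM in control and 2.07 and 1.43 CPM in DKO with CD40L, and the interaction was -2.60 ± 0.45 (adjusted p = 0.0042). Usp18 stood at 1.05 and 0.949 CPM in control and 1.41 and 0.667 CPM in DKO (interaction -3.04 ± 0.56, adjusted p = 0.0053). These 3 genes were low in all 4 libraries of the CD40L culture, whereas in LPS + IL-4 they were highest in control. Other members had a clear level in the CD40L controls. Oas3 stood at 12.1 and 8.33 CPM in control and 0.435 and 0.477 CPM in DKO with CD40L, a log2 fold change of -4.49, and its effect did not pass the interaction test (0.70 ± 0.68, adjusted p = 0.495). Ifi35, an interferon-induced leucine zipper protein, stood at 48.6 and 60.9 CPM in control and 62.3 and 64.9 CPM in DKO with CD40L (interaction -0.77 ± 0.17, adjusted p = 0.0113). Ddx58, which encodes the RNA sensor RIG-I, stood at 80.0 and 68.6 CPM in control and 69.3 and 59.7 CPM in DKO with CD40L, and its interaction was -0.02 ± 0.25 (adjusted p = 0.969).

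Ccl22 was not reduced with CD40L, at 73.1 and 183 CPM in control and 194 and 131 CPM in DKO (interaction -4.62 ± 0.80, adjusted p = 0.00398). Lad1 stood at 3.85 and 7.59 CPM in control and 8.91 and 5.24 CPM in DKO (interaction -3.83 ± 0.69, adjusted p = 0.00464). Flt3 was higher in DKO with CD40L, at 2.62 and 4.43 CPM in control and 7.39 and 8.01 CPM in DKO, and lower with LPS (interaction -3.17 ± 0.54, adjusted p = 0.00364). All 3 genes fell with LPS and did not fall with CD40L. Slpi was abundant in both genotypes with CD40L, at 302 and 341 CPM in control and 442 and 342 CPM in DKO, against control levels of 1.47 and 1.38 CPM with LPS (interaction 3.96 ± 0.56, adjusted p = 0.0015). Ets1 did not differ by the fold threshold with CD40L, at 901 and 855 CPM in control and 1004 and 841 CPM in DKO (interaction 1.37 ± 0.20, adjusted p = 0.00169). In both genes the effect of the double loss was larger with LPS.

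The effect on the BCR group differed between cultures in 1 direction, a shift that related lists shared. Of its 40 kinases and adaptors, 32 passed the interaction test, each with the more positive effect in LPS + IL-4. Of all genes 34.4% passed, 18.5% with a more positive effect. The list median was 0.12 with LPS and -0.71 with CD40L. Of the 15 genes that restrain the BCR signal 11 passed, 0 of them with the more negative effect in LPS + IL-4. Among the 32 B cell regulators 25 passed, 2 of them with the more negative effect. Blk fell with CD40L, at 141 and 169 CPM in control and 94.7 and 90.5 CPM in DKO, and rose with LPS (interaction 1.41 ± 0.26, adjusted p = 0.00545). Cd22 followed the same pattern, at 841 and 858 CPM in control and 651 and 423 CPM in DKO with CD40L (interaction 1.30 ± 0.30, adjusted p = 0.0136). Spi1 itself stood at 84.6 and 109 CPM in control and 32.7 and 25.6 CPM in DKO with CD40L, where it fell, while it did not with LPS (interaction 1.60 ± 0.24, adjusted p = 0.00202). Tlr9 and Siglecg fell in both cultures and more with CD40L (interactions 1.12 ± 0.28 and 1.79 ± 0.29). Prdm1 rose in both, more so with CD40L, where it stood at 8.31 and 9.18 CPM in control and 45.8 and 50.6 CPM in DKO (interaction -0.91 ± 0.19, adjusted p = 0.00922). Tnfrsf8 rose with CD40L, at 7.09 and 3.80 CPM in control and 59.998 and 72.2 CPM in DKO, from a low control level that was not seen with LPS (interaction -3.15 ± 0.40, adjusted p = 0.00124).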

How the data were processed

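mRNA of B cells was sequenced as 24 libraries, of which the 8 from the LPS + IL-4 culture (4 genotypes, 2 libraries each) and, for the interaction, 8 from the CD40L + IL-4 culture were used. The authors aligned reads to GRCm38 (mm10) with Subread and counted them per RefSeq gene with featureCounts, and the deposited raw counts were the input of all tests. Counts of the LPS + IL-4 and of the CD40L + IL-4 libraries were deposited as separate sets, so culture and set coincided in the interaction. Whether this affected the interaction was not tested. The authors also deposited quantile-normalised log2 RPKM values, used here only as the expression threshold. Samples were grouped by their titles, because 1 extraction text that names CD40L + IL-4 is attached to every sample. The study describes replicates as biological, but the labels give no animal, so p-values measure the spread between these samples.

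The 12216 genes that reached 0.5 CPM in 2 or more of the 4 libraries compared were fitted in edgeR 4.0.16 (R 4.3.3) with TMM scaling and the quasi-likelihood test over the 8 libraries of the culture, which share 1 estimate of the spread. Standard errors are the log2 fold change over the root of the F statistic. The thresholds are those of the study's methods. The interaction was fitted over 16 libraries. Levels are CPM after TMM scaling. Intervals of ratios cover counting error only.

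Deviations from the group means correlated at 0.412 to 0.546 between libraries of the same number in the 6 pairs of genotypes (0.474 for control and DKO), and number coincided with sex, so the numbers appeared to pair the libraries, which the labels do not state. The values reported come from the fit without the number as a block, and the block fit is an alternative. Others were DESeq2 1.42.0, limma 3.58.1 (voom), scaling, filters, thresholds, the libraries in the fit and leaving out each library. On simulated counts with these depths, edgeR recovered 84% of 200 genes changed by 1 on the log2 scale, with 23 false calls.

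The members, the 36 gene lists (written from textbook knowledge) and the tests were chosen with earlier results of these data known. Named genes were Spi1 and Spib, the 12 largest rises and falls without overlap and with at least 10 CPM in the higher group, up to 6 DE members and the 2 most abundant other members of each list, the genes the study names for RNA-seq, and genes within 5 Mb of Spi1 or Spib among the largest changes. This rule named 248 genes, from which those in the text were taken, and some of them are not reported here. The alternatives for the single mutants and for single interactions were added after the data were seen. Promoters are RefSeq's for GRCm38.p6, matched by Entrez ID for 9223 of 12216 genes. Gene positions were found for 97.9% of the genes tested.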

Additional observations from a re-analysis of the deposited data

Results flagged for a closer look

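The 31 genes below were flagged because the effect of the double loss differed between the LPS + IL-4 and the CD40L + IL-4 culture in the test of the interaction itself, at an adjusted p under 0.15, as 34.4% of all genes did. Each value is the log2 effect in LPS + IL-4 minus that in CD40L + IL-4, with its standard error, and no explanation was tested.

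The effect was more negative with LPS for the chemokine gene Ccl22 (-4.62 ± 0.80), Lad1 (-3.83 ± 0.69), the interferon-stimulated genes Irf7 (-2.60 ± 0.45), Usp18 (-3.04 ± 0.56) and Ifi35 (-0.77 ± 0.17), and the receptor gene Flt3 (-3.17 ± 0.54). The same direction was found for Batf (-1.46 ± 0.25), for the one-carbon enzyme gene Shmt1 (-1.50 ± 0.41) and for the lactate transporter gene Slc16a1 (-1.49 ± 0.29). At Batf, Shmt1 and Slc16a1 the level was lower in DKO with LPS and higher with CD40L, where the log2 fold changes were 0.93, 0.69 and 0.83. The rise of Shmt1 with CD40L lay mostly in replicate 2, at 67.5 and 50.7 CPM in control and 68.9 and 124 CPM in DKO. Genes that were higher in DKO in both cultures, but with a smaller log2 effect in LPS, were Tnfrsf8 (-3.15 ± 0.40), Il2ra (-1.11 ± 0.28), Cd24a (-1.21 ± 0.30) and Prdm1 (-0.91 ± 0.19).

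The effect was more positive with LPS for Slpi (3.96 ± 0.56), Nrgn (3.70 ± 0.63), Fcrls (3.18 ± 0.57), the IL-4 receptor adaptor gene Irs2 (2.54 ± 0.59), Zap70 (2.48 ± 0.33) and Socs2 (1.55 ± 0.30). Among regulators this held for Bhlhe41 (2.52 ± 0.45), Egr2 (1.78 ± 0.26), Ets1 (1.37 ± 0.20), E2f2 (1.31 ± 0.20), Cdkn2d (1.35 ± 0.24) and Spi1 (1.60 ± 0.24). Bhlhe41 was higher in DKO with LPS and lower with CD40L, at 58.1 and 39.3 CPM in control and 24.3 and 18.9 CPM in DKO in the latter. On the surface and in the BCR signal the genes were Cd22 (1.30 ± 0.30), Blk (1.41 ± 0.26) and Cd2 (1.46 ± 0.28). Xkrx (3.02 ± 0.44), Siglecg (1.79 ± 0.29) and Tlr9 (1.12 ± 0.28) were lower in DKO in both cultures, with the smaller log2 effect in LPS.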

How the results depend on the processing

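The 1689 DE genes became 1690 with DESeq2's size factors in edgeR, 1644 with DESeq2 (1635 shared), 1795 with limma-voom, 1693 without the low-count filter, 1662 in a fit of the 4 libraries alone, 1690 in one of all 24 libraries and 1557 at an adjusted p under 0.05. With limma-voom the median log2 fold change of all genes was -0.056 and 54.1% of the DE genes were higher, and with all 24 libraries these values were -0.062 and 55.2%, against 63.5% higher in the values reported. Leaving out 1 library gave 1412 to 2130 DE genes, without the RPKM threshold there were 2475 and without the fold threshold 5134. With the replicate number as a block 1705 genes were DE, and the pairing moved no count of DE genes by over 1.5 times; the interaction count was 5445 with the block. That count was otherwise 3780 to 4254 with other scaling, DESeq2 or no filter, 1999 at an adjusted p under 0.05, and 1755 to 4455 with 1 library left out. The 114 named DE genes in which DKO differed from both single mutants, whatever the direction, became 74 to 104 with 1 library left out. The same DKO libraries chose the genes for this count. Of 2208 alternative values over 184 named genes, 40 lost the call, 12 gained it and 1 reversed, and 167 of the genes kept every call. Spi1, which passed no test, was at 0.01 without control replicate 1 and spanned -0.23 to 0.01 over such fits, and the cause was not tested. The interaction of Ddx58, which passed no test either, was at 0.08 or 0.03 in 4 of the 8 fits without 1 library and spanned -0.13 to 0.08 over them. Of 252 alternative list medians 74 moved by more than the spread between replicate numbers, and all 16 lists with a median of at least 0.3 in size kept its sign in every setting run on the lists. Depth limits the genes near 0 counts in control, such as Mybpc3 and Csrp3, to wide ratios, and 2 libraries a group leave small differences unresolved.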

Other observations

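Genes of nutrient use were listed as well. Ddit4, an inhibitor of the growth kinase mTORC1, stood at 30.8 and 28.5 CPM in control and 117 and 109.7 CPM in DKO (log2 fold change 1.94 ± 0.12, adjusted p = 9.83e-06), with both DKO libraries far above control. Of 21 tested genes of amino acid supply and stress, 4 rose (19.0% against 8.78% of all genes) and 3 fell (14.3% against 5.04%). The 3 that fell were Cth, an enzyme of cysteine synthesis (log2 fold change -1.26 ± 0.19, adjusted p = 0.00103), and the one-carbon enzymes Shmt1 (log2 fold change -0.79 ± 0.12, adjusted p = 0.00137) and Mthfd2 (log2 fold change -0.66 ± 0.11, adjusted p = 0.00157), the mitochondrial one, all lower in both DKO libraries. Of 22 glycolytic genes 2 fell (9.09% against 5.04% of all genes). They were Hk2, which traps glucose (log2 fold change -0.66 ± 0.10, adjusted p = 0.00141), and Slc16a1, which carries lactate (log2 fold change -0.63 ± 0.12, adjusted p = 0.00325). Sterol and fatty acid synthesis gave 1 rise among 30 tested genes (3.33% against 8.78% of all genes).

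Lysosomal genes gave 3 rises and 3 falls among 34 (8.82% each, against 8.78% and 5.04% of all genes). Grn, which encodes progranulin, stood at 285 and 302 CPM in control and 74.7 and 97.2 CPM in DKO (log2 fold change -1.77 ± 0.16, adjusted p = 6.57e-05), and this fall exceeded that of every other DE member of the list.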
